A study of Mus musculus with 2 samples.

Results

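The 9 genes *Rbp4*, *Stra6*, *Rdh10*, *Aldh1a1*, *Aldh1a2*, *Aldh1a3*, *Crabp1*, *Crabp2* and *Cyp26b1*, which carry, make, bind and degrade retinoic acid, were followed in single pituitary cells. They were taken by symbol from the 31055 features of the count matrices, and all 9 were found. The cells came from Sox9iresGFP/+ mice, heterozygous for a reporter that marks SOX9 cells with GFP, at postnatal day 3 (P3). GFP-positive cells were sorted from 3 pooled pituitaries of each sex and sequenced as 1 male and 1 female library. GFP outlasts SOX9 protein, so that the sorted fraction holds stem cells (SCs) and their recent progeny, and both libraries are labelled as stem cells. With 1 library per sex there was no replicate, no test was possible, and sex cannot be told apart from the animals, the sort and the preparation. Intervals in parentheses are exact 95% limits of the counting error only, and where a pair of values is given for a gene, the first is from the male and the second from the female library.

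Retinol leaves the liver bound to RBP4, and STRA6, a membrane receptor for RBP4, lets it into cells. RDH10 oxidises retinol to retinaldehyde, and the retinaldehyde dehydrogenases ALDH1A1, ALDH1A2 and ALDH1A3 oxidise this to retinoic acid. In the cytoplasm retinoic acid is bound by CRABP1 and CRABP2, CRABP2 passing it to nuclear retinoic acid receptors, and CYP26 enzymes such as CYP26B1 break it down. *Aldh1a2* is known as a marker of SCs in the anterior lobe of the pituitary.

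Cells were put in classes by unique molecular identifiers (UMIs) of marker genes, none of them 1 of the 9 genes. SCs had a UMI of both *Sox2* and *Sox9* and numbered 1793 male and 1822 female cells. Differentiating cells, with at least 2 of 7 markers such as *Lef1* and *Dll1*, numbered 1880 and 1267. Endocrine cells, with at least 3 of 13 secretory granule and lineage genes, numbered 2382 and 696, and mesenchymal cells, with at least 3 of 7 collagen, decorin and PDGF receptor genes, 571 and 259. *Sox9* drives the reporter and is part of the SC rule, so the sort and the class share a gene. Genes that the rule did not use followed the classes. *Epcam*, an epithelial gene, was at 2257 and 2152 CPM (counts, here UMIs, scaled to a total of 1e6) in SCs and at 139 and 106 CPM in mesenchymal cells. *Pomc* was at 35199 and 28091 CPM in endocrine cells and *Col6a1* at 702 and 661 CPM in mesenchymal cells, so the label of stem cell held for only a part of either library. Markers of other cells were low: *Ptprc*, which defines leukocytes, was at 0 CPM in all 4 classes of both libraries, while the endothelial gene *Emcn* was at 193 and 203 CPM in mesenchymal cells.

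The libraries held 10410 and 5711 cells with a median of 8902.5 and 9789 UMIs. 3559 male and 1580 female cells met no rule, with medians of 1565 and 8062.5 UMIs. They held 24.2% and 33.2% of all *Aldh1a2* UMIs but 13.5% and 21% of all UMIs, so they were not low in *Aldh1a2*. Of *Aldh1a3* UMIs, 19.8% and 41.8% lay in these cells, beside 39.9% and 32.9% in SCs. Since the male library had many shallow cells, shares of cells are given after thinning each cell to 5000 UMIs. The libraries shared 19 barcodes, and without these cells none of the levels of the 9 genes left its interval.

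The 9 genes did not share a single pattern across the 4 classes. Among the 4 classes, *Aldh1a2* and *Crabp2* were highest in SCs and lower in differentiating, endocrine and mesenchymal cells in that order, in both libraries. *Rbp4* was highest in endocrine cells, and *Stra6* and *Rdh10* in mesenchymal cells. *Aldh1a1* was highest in SCs at a low level, *Aldh1a3* and *Crabp1* had few UMIs, and *Cyp26b1* was nearly undetected in all 4 classes. UMIs count 3′ ends and were not divided by length, so each gene is compared between groups of cells and not with the other genes.

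**Figure D1:**
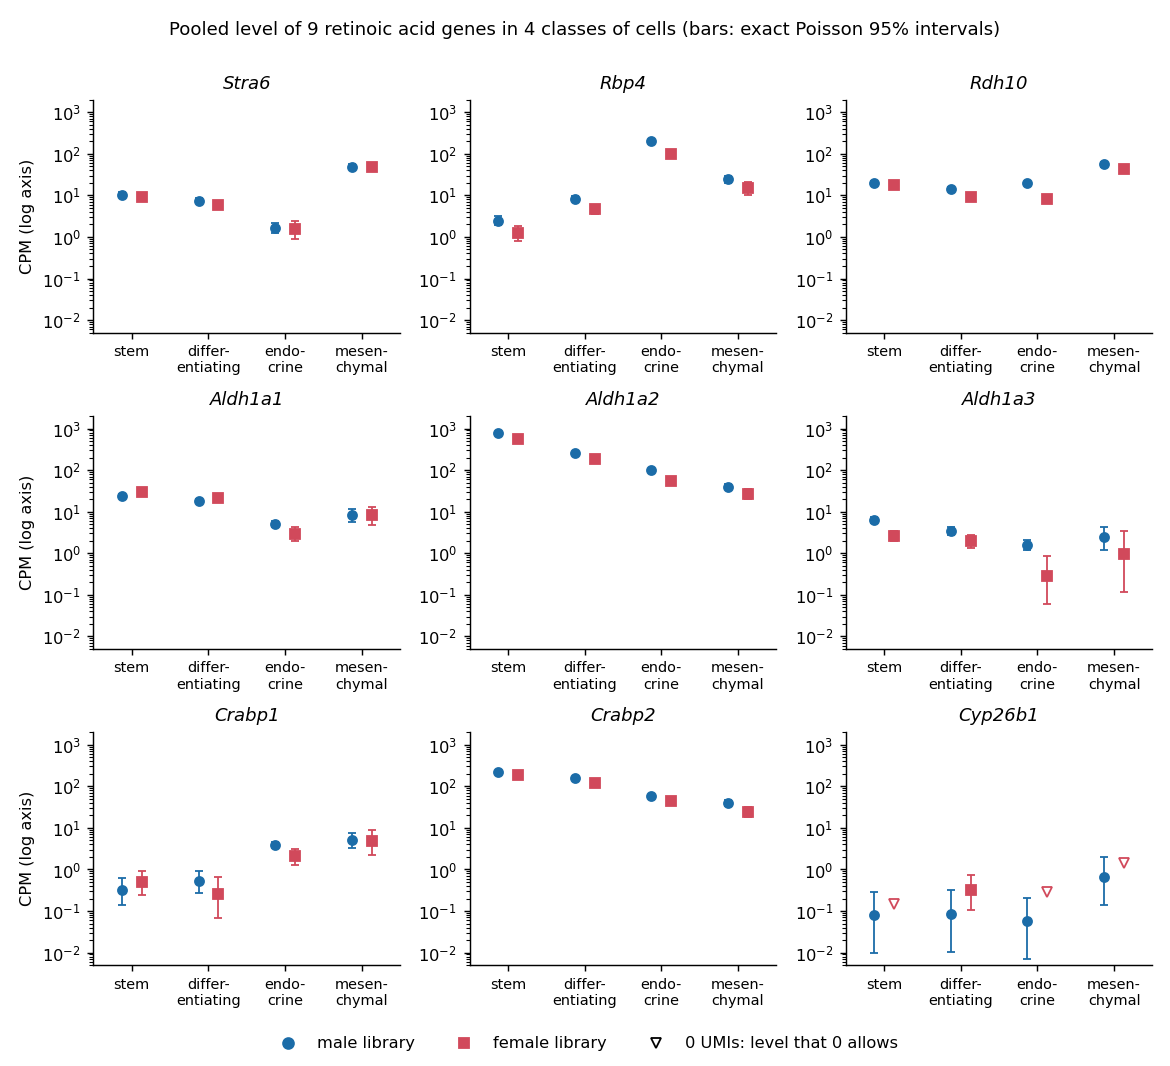
Each panel plots the pooled level of 1 gene in CPM, on a log axis, in the 4 classes of the male (circles) and female (squares) library, with exact Poisson 95% intervals, and open triangles mark the level that 0 UMIs allow. *Aldh1a2* descends from 789 and 566 CPM in SCs to 40 and 26.2 CPM in mesenchymal cells, while *Rbp4* peaks in endocrine cells and *Stra6* and *Rdh10* in mesenchymal cells.

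The start regions of *Aldh1a2* and *Aldh1a1*, both highest in SCs, and of *Rbp4*, highest in endocrine cells, are shown to set their letters side by side. Each run is 5′ to 3′ on the strand of its gene, from 250 bases before to 50 bases after a RefSeq start site of GRCm38.p6, with the letters of any match to 8 searched motifs in capitals. Windows were found for 6 of the 9 genes, and *Rbp4*, *Aldh1a1* and *Stra6* have further start sites that are not shown.
Aldh1a2 (chr9:71215539-71215838, plus strand): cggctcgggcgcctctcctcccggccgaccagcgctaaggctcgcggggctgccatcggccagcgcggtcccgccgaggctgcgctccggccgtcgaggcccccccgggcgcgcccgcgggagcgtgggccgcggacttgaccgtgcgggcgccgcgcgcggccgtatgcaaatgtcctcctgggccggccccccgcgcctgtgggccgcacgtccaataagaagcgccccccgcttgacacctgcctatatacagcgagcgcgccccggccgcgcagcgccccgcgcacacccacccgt
Aldh1a1 (chr19:20492333-20492632, plus strand): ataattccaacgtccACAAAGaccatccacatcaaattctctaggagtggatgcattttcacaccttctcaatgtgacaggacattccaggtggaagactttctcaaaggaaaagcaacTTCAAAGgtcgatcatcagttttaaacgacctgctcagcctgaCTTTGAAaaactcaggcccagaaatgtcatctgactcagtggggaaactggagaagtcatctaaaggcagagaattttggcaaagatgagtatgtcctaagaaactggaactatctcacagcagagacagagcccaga
Rbp4 (chr19:38124762-38125061, minus strand): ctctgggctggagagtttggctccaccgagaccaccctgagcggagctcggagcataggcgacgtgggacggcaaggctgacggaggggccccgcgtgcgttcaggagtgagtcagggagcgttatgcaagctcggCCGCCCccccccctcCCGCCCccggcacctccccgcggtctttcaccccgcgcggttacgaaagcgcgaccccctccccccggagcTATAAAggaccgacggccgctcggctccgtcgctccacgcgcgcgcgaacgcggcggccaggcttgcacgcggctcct
The *Aldh1a2* window held no match, the *Aldh1a1* window 1 SOX match and 2 LEF1/TCF matches, and the *Rbp4* window 1 TATA box, starting at -28 from the start site, and 2 GC boxes. Another *Rbp4* window, not shown and nearer to the start of the gene model, held a LEF1/TCF match at -30. Another *Aldh1a1* window, also not shown, held no match. The motifs were searched on both strands, and shares are of all such windows in the table. TATAAA, the TATA box, was in 13.6%. GGGCGG, the GC box, was in 35.7%. The SOX motif was ACAATG with T or A before its last letter, and 1 of these forms was in 28.6%. The LEF1/TCF motif was CTTTGAA with A or T as its last letter, and was in 8.65%. AGGTCA, the half-site that retinoic acid receptors and other nuclear receptors bind, was in 16.3%. The SF1 motif, AAGGTCA, contains it and was in 4.72%. TAATCC, for PITX factors, was in 7.06%. CAGCTG, an E-box, was in 16.3%. A match is a description of letters and not a binding site, and no match says only that these letters are not in this window.

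*Rbp4* (ENSMUSG00000024990, chromosome 19 from 38116629 to 38125281, minus strand, GRCm38), the retinol carrier of blood, was at 204 CPM (199–209) and 98.3 CPM (92.3–104) in endocrine cells. SCs had 2.48 CPM (1.9–3.18) and 1.23 CPM (0.798–1.82), and the endocrine level was 82.2-fold (62.6–109.7) and 79.7-fold (50.8–131) higher. At 5000 UMIs per cell 36.7% (34.6–38.9) and 21.5% (18.5–24.7) of endocrine cells had a UMI, against 0.862% (0.472–1.44) and 0.561% (0.27–1.03) of SCs, the class with the lowest level. Before thinning, 47.9% and 34.2% of endocrine cells and 2.84% and 1.37% of SCs had one, at median depths of 13819 and 13954 UMIs in endocrine cells and 10661 and 9652 UMIs in SCs. Differentiating cells stood between, at 8.3 and 4.66 CPM, and mesenchymal cells had 24.7 and 15.3 CPM. With cells classed after thinning, the endocrine level was 316 and 155 CPM.

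Within the endocrine class *Rbp4* was uneven. It was highest in gonadotroph-like cells, with at least 2 UMI-positive genes of *Nr5a1*, *Gnrhr*, *Lhb*, *Fshb* and *Nhlh2*, at 564 CPM (544–585) and 304 CPM (243–375), although only 18 female cells were in this group. Cells of the POU1F1 lineage, which give somatotrophs, lactotrophs and thyrotrophs, had 175 CPM (167–183) and 210.1 CPM (194–227). Melanotroph-like cells, which make MSH, had 15.9 CPM (12.4–20.1) and 8.71 CPM (5.24–13.6). The gonadotroph-like level was thus 35.5-fold (27.1–47.3) and 34.9-fold (17.9–71.5) above that of melanotroph-like cells, and 3.22-fold (2.97–3.5) and 1.45-fold (1.07–1.93) above that of the POU1F1 lineage.

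*Stra6* (ENSMUSG00000032327, chromosome 9 from 58063788 to 58153996, plus strand), the receptor that takes up retinol from RBP4, was at 48.7 CPM (42.4–55.6) and 49.2 CPM (40.1–59.6) in mesenchymal cells. SCs had 10.4 CPM (9.19–11.8) and 9.12 CPM (7.85–10.5), and the mesenchymal level was 4.67-fold (3.61–6.05) and 5.39-fold (3.81–7.59) higher. Differentiating cells had 7.52 and 5.87 CPM and endocrine cells 1.68 and 1.52 CPM. Among the 4 classes, *Stra6* was thus lowest where its ligand gene *Rbp4* was highest. Within the endocrine class this order did not hold throughout. *Stra6* was at 2.39 and 2.56 CPM in the POU1F1 lineage and 0.681 and 0.917 CPM in melanotroph-like cells, which had less *Rbp4*. Gonadotroph-like cells had 1.92 and 0 CPM. *Stra6* UMIs were in 18.1% (14.6–22) and 18.4% (13.6–24.1) of thinned mesenchymal cells and 4.92% (3.92–6.09) and 4.32% (3.43–5.37) of SCs, against 0.456% (0.209–0.863) and 0.29% (0.0352–1.04) of endocrine cells. Before thinning, 24.5% and 26.3% of mesenchymal and 2.06% and 2.16% of endocrine cells had one. Among mesenchymal cells, those with *Mfap5* or *Apod* UMIs had 60.7 and 55.1 CPM and those with *Tcf21* 32.2 and 37.5 CPM, 1.88-fold (1.18–3.09) and 1.47-fold (0.724–3.18) higher in the former, so that the female difference was within counting error. *Gm16131*, another feature of the matrices, overlaps *Stra6* on the same strand, so part of the *Stra6* count is uncertain.

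*Rdh10* (ENSMUSG00000025921, chromosome 1 from 16105774 to 16133734, plus strand), which makes retinaldehyde from retinol, was also highest in mesenchymal cells, at 56.2 CPM (49.5–63.6) and 43 CPM (34.5–52.8). SCs had 19.9 CPM (18.2–21.8) and 17.5 CPM (15.7–19.4), and the mesenchymal level was 2.82-fold (2.27–3.49) and 2.45-fold (1.78–3.36) higher. Shares at equal depth were 23.6% (19.7–27.8) and 16.7% (12.1–22.2) of mesenchymal cells and 8.55% (7.24–10) and 7.52% (6.34–8.85) of SCs, against 6.43% (5.23–7.81) of male differentiating and 2.76% (1.67–4.27) of female endocrine cells, the classes lowest in each library. Before thinning, 29.9% and 26.3% of mesenchymal cells and 20.4% and 15.2% of SCs had an *Rdh10* UMI. The order of the other classes was not the same in both libraries, since endocrine cells had 19.4 and 8.01 CPM and differentiating cells 14.3 and 8.93 CPM. Gonadotroph-like cells had 64.4 CPM (57.7–71.7) and 45.4 CPM (24.2–77.6), close to mesenchymal cells, while the POU1F1 lineage had 9.73 and 6.4 CPM and melanotroph-like cells 2.95 and 6.42 CPM. The gonadotroph-like level was 6.62-fold (4.88–9.03) and 7.09-fold (2.44–19.8) higher than that of the POU1F1 lineage. In the male library 16.2% (12.1–20.9) of 291 thinned gonadotroph-like cells had UMIs of both *Rdh10* and *Rbp4*, and 14.4% is the product of the 2 shares.

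**Figure D2:**
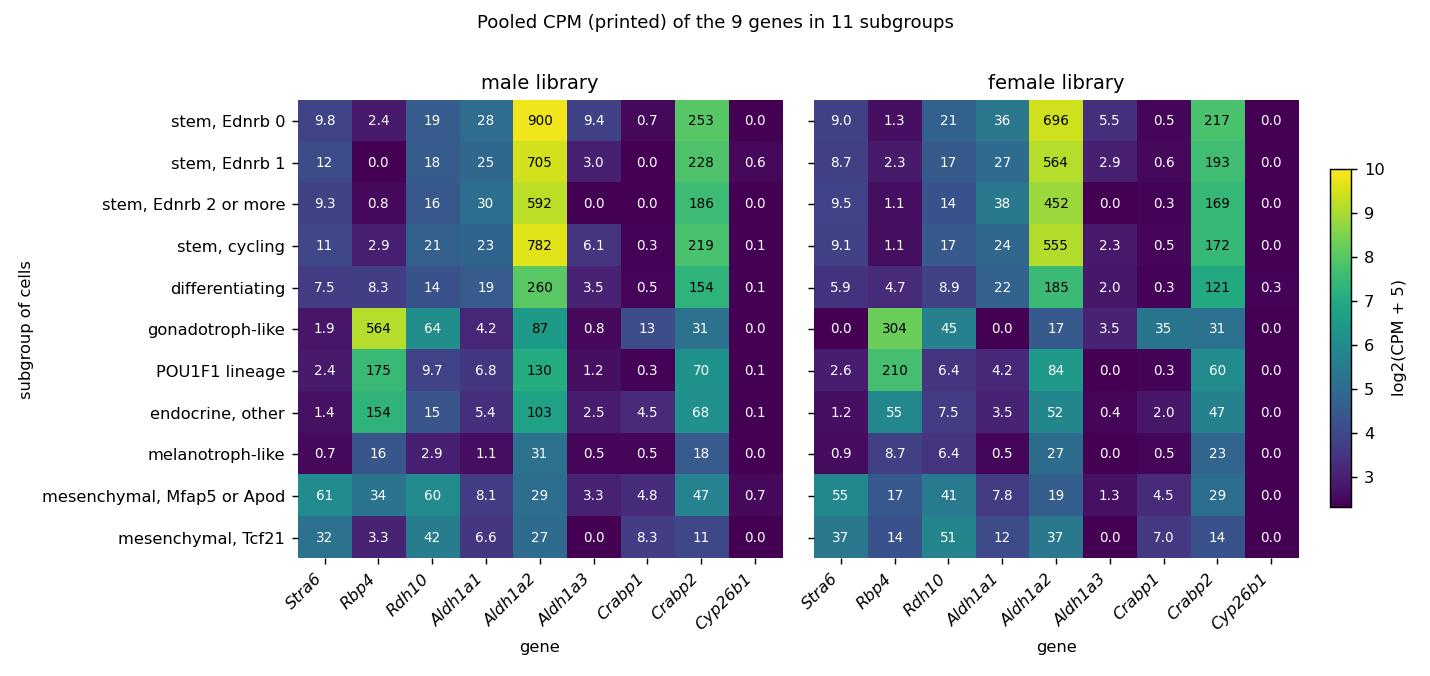
The maps give the pooled CPM of each gene (columns) in 11 subgroups of cells (rows) for the male and female library, with colour on the log2(CPM + 5) scale. *Aldh1a2* and *Crabp2* fill the SC rows, *Rbp4* stands out in gonadotroph-like cells at 564 and 304 CPM, and *Stra6* in both mesenchymal rows. *Rdh10* is high in both mesenchymal rows and in gonadotroph-like cells, at 64.4 and 45.4 CPM in the latter.

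*Aldh1a2* (ENSMUSG00000013584, chromosome 9 from 71215789 to 71296243, plus strand), a retinaldehyde dehydrogenase, was at 789 CPM (778–799.7) and 566 CPM (555–576) in SCs. Differentiating cells had 260.0 CPM (253–267) and 185 CPM (178–192), and SCs were 3.03-fold (2.92–3.16) and 3.06-fold (2.89–3.23) higher. Endocrine cells had 99.4 CPM (96.1–103) and 55.7 CPM (51.3–60.5), and SCs were 7.93-fold (7.57–8.32) and 10.1-fold (9.19–11.2) higher. In SCs lay 49.5% and 50.7% of all *Aldh1a2* UMIs, on 17.2% and 31.9% of cells and 23.6% and 32.3% of all UMIs. Most thinned SCs had a UMI, with shares of 90.1% (88.5–91.5) and 80.5% (78.5–82.3), against 6.64% (4.49–9.39) and 5.7% (3.07–9.55) of mesenchymal cells, the class with the lowest level. Before thinning, the shares were 92.2% and 89.2% of SCs and 15.1% and 9.65% of mesenchymal cells, whose median depths were 7357 and 7429 UMIs. Endocrine cells, at 17.6% (15.9–19.3) and 18% (15.2–21.1), lay above that share.

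The lower levels of *Aldh1a2* depended on where the classes were drawn. With cells classed after thinning, differentiating cells had 100.3 and 110.3 CPM. In female mesenchymal cells the level of 26.2 CPM was 9.46 CPM without the cells that scored highest as doublets, and in male mesenchymal cells 40 CPM became 62.2 CPM as a mean of cells. A group of 55 shallow male mesenchymal cells without *Tcf21*, *Mfap5* or *Apod* had 299 CPM (212–411), while mesenchymal cells with *Tcf21* had 27.3 CPM (18.8–38.3). *Sox2*, the stem cell gene, was at 28.9 and 40.1 CPM in the mesenchymal class and at 156 and 226 CPM in the endocrine class, and its part in the *Aldh1a2* levels there was not tested.

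Among SCs, *Aldh1a2* was higher where *Ednrb*, the endothelin receptor that marks SCs of the pituitary cleft, was not detected. Non-cycling SCs without *Ednrb* UMIs had 900.2 CPM (873–928) and 696 CPM (671–723). Those with 1 UMI had 705 and 564 CPM, and those with 2 or more 592 CPM (551–636) and 452 CPM (430.3–475). The first group was 1.52-fold (1.37–1.68) and 1.54-fold (1.41–1.68) above the last, and even *Ednrb*-rich SCs had more *Aldh1a2* than differentiating cells. At equal depth, over all SCs, levels went from 847 CPM with no *Ednrb* UMI to 454 CPM with 3 or more in male SCs, and from 647 to 341 CPM in female SCs. Cycling SCs, with at least 2 of 8 proliferation genes, had 782 and 555 CPM.

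*Aldh1a1* (ENSMUSG00000053279, chromosome 19 from 20492715 to 20643465, plus strand) was also highest in SCs, at 24.4 CPM (22.5–26.4) and 29.2 CPM (26.9–31.7). Differentiating cells had 18.5 and 21.6 CPM, mesenchymal cells 8.22 and 8.11 CPM and endocrine cells 5.09 and 2.95 CPM. Against endocrine cells SCs were 4.78-fold (3.81–6.03) and 9.9-fold (6.42–15.8) higher, while the step from SCs to differentiating cells, 1.32-fold (1.1–1.57) and 1.35-fold (1.12–1.63), was smaller than that of *Aldh1a2*. By *Ednrb*, *Aldh1a1* differed within counting error, with 28.2 and 35.9 CPM without and 30.2 and 38.1 CPM with 2 or more UMIs, a ratio of 0.935-fold (0.571–1.56) and 0.941-fold (0.669–1.32), and the male limits also include the ratio of *Aldh1a2*. Its share of thinned SCs was 11.6% (10.1–13.2) and 12.7% (11.2–14.3), against 2.03% (1.45–2.75) and 0.871% (0.32–1.89) of endocrine cells, the lowest class. Before thinning, 23.5% and 22.7% of SCs and 5.21% and 3.16% of endocrine cells had a UMI. *Aldh1a7*, a near-identical copy of *Aldh1a1*, was at 2.28 and 2.46 CPM in SCs, and reads of the pair may be split, so the *Aldh1a1* level is uncertain.

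*Aldh1a3* (ENSMUSG00000015134, chromosome 7 from 66390890 to 66427517, minus strand) was rare, at 6.21 CPM (5.27–7.27) and 2.56 CPM (1.91–3.36) in SCs and at most 3.48 CPM in the other 3 classes. Its UMIs in non-cycling SCs lay with low *Ednrb*: 43 male and 22 female UMIs without *Ednrb*, giving 9.4 and 5.52 CPM, and 0 UMIs in 139 male and 365 female cells with 2 or more, where 0 allows up to 2.32 and 0.86 CPM. These limits lie below the lower ends of the intervals without *Ednrb*, 6.8 and 3.46 CPM. Non-cycling SCs with 1 *Ednrb* UMI had 2.96 and 2.9 CPM. Cycling SCs held 107 of 155 male and 25 of 52 female UMIs and were outside this split. Over all thinned SCs the level was 7.88 CPM (5.79–10.5) and 4.9 CPM (3.14–7.3) without an *Ednrb* UMI, and 2.2 CPM (0.0556–12.2) and 0 CPM with 2, with intervals that overlapped in both libraries. With 1 *Ednrb* UMI it was at 2.92 CPM (0.796–7.48) and 0.498 CPM (0.0126–2.77), and only the female interval lay apart from that without *Ednrb*. With 3 or more it was at 0 CPM in both libraries, with upper limits of 11 and 3.71 CPM, so these intervals overlapped too.

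*Crabp2* (ENSMUSG00000004885, chromosome 3 from 87948666 to 87953376, plus strand), which carries retinoic acid to its receptors, was at 224 CPM (218–229.7) and 182 CPM (176–188) in SCs. Differentiating cells had 154 CPM (149–159.5) and 121 CPM (115–126), and endocrine cells 57.1 CPM (54.6–59.6) and 45.5 CPM (41.5–49.7). SCs were 3.92-fold (3.66–4.21) and 4.01-fold (3.55–4.54) above endocrine cells and 5.63-fold (4.73–6.72) and 7.48-fold (5.51–10.4) above mesenchymal cells. UMIs were found in 61.7% (59.3–64.1) and 51.4% (49.1–53.8) of thinned SCs and 17.2% (15.6–19) and 15.5% (12.9–18.5) of endocrine cells, against 7.32% (5.06–10.2) and 8.77% (5.44–13.2) of mesenchymal cells, the lowest class. Before thinning, 78.8% and 72.4% of SCs and 11.6% and 10.8% of mesenchymal cells had one. In the mesenchyme it was at 47.4 and 29.2 CPM in cells with *Mfap5* or *Apod* and 10.7 and 14 CPM in cells with *Tcf21*, 4.41-fold (2.15–9.85) and 2.08-fold (0.696–7.57) higher in the former, and the difference in the female library was within counting error.

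*Crabp1* (ENSMUSG00000032291, chromosome 9 from 54764748 to 54773110, plus strand), the other cytoplasmic binding protein, had only 196 male and 52 female UMIs in all and was at 0.32 and 0.493 CPM in SCs. Its highest subgroup was again gonadotroph-like cells, at 12.6 CPM (9.78–16.1) and 34.9 CPM (16.7–64.2), the latter from 10 UMIs in 3 of 18 cells. Mesenchymal cells had 5.11 CPM (3.24–7.67) and 4.77 CPM (2.29–8.78). The 2 binding protein genes were therefore highest in different cells, *Crabp2* in SCs and *Crabp1* in gonadotroph-like and mesenchymal cells.

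*Cyp26b1* (ENSMUSG00000063415, chromosome 6 from 84571414 to 84593908, minus strand), which degrades retinoic acid, had 25 UMIs in 13 male cells and 9 in 3 female cells. SCs held 2 UMIs in the male library, or 0.0801 CPM (0.0097–0.289), and none in the female, a count that allows up to 0.148 CPM. Mesenchymal cells held 3 UMIs and 0, at depths that allow up to 1.43 CPM in the female library. Differentiating cells held 2 male and 5 female UMIs, of the latter 4 in 1 cell. At this depth it was not detectable above a few UMIs in any of the 4 classes.

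Set against all features, the members that differed between classes were as follows, counting a fold of at least 2 after adding 5 CPM, in the same direction in both libraries, with at least 100 UMIs over both classes. Between SCs and endocrine cells, 8 of the 9 genes had enough UMIs. *Aldh1a1*, *Aldh1a2*, *Crabp2* and *Stra6* were higher in SCs, against 6.73% of such features, and *Rbp4* was lower, against 4.75%. Between SCs and differentiating cells 7 genes had enough, and *Aldh1a2* alone was higher in SCs, against 2.99% of features, and none lower, against 1.88%. Between SCs and mesenchymal cells 7 had enough. *Aldh1a1*, *Aldh1a2* and *Crabp2* were higher in SCs, against 8.46%, and *Rdh10*, *Rbp4* and *Stra6* higher in mesenchymal cells, against a background of 7%. The median log2 fold of the 9 genes, SCs over endocrine cells, was 0.77 and 0.79, beside -0.04 and -0.03 over all features with enough UMIs. It was 0.32 and 0.36, beside 0.02 and 0.04 for SCs over differentiating cells, and -0.16 and 0, beside 0.02 and 0.07 for SCs over mesenchymal cells, where the members split. With 1 CPM added in place of 5, *Crabp1* also counted as lower in SCs than in endocrine cells and *Rbp4* as lower in SCs than in differentiating cells. *Aldh1a3* then also counted as higher in SCs than in endocrine cells, at 2.78-fold and 2.77-fold, with only 3 UMIs in female endocrine cells.

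*Aldh1a2* and *Crabp2*, for making and binding retinoic acid, were both lower in cells with more differentiating markers, *Aldh1a2* by more. Among thinned cells with a *Sox2* UMI, outside the endocrine class, *Aldh1a2* was at 772 CPM (755–789) in male and 576 CPM (563–589.8) in female cells with none of the 7 differentiating markers. With 2 markers it was at 190.5 and 215 CPM, and with 4 or more at 71.2 CPM (56.7–88.3) and 67.9 CPM (53.1–85.5). *Crabp2* was at 227 CPM (218–236) and 187 CPM (180.0–195) without a marker and at 99.6 CPM (82.3–119) and 99.1 CPM (81–119.9) with 4 or more. There were thus 3.4 (3.2–3.61) *Aldh1a2* UMIs per *Crabp2* UMI in male and 3.07 (2.88–3.28) in female cells without a marker, and 0.716 (0.475–1.07) and 0.686 (0.443–1.06) in cells with 4 or more, with limits taken from both intervals. *Rdh10* did not move alike in the libraries, from 17.8 to 18.9 CPM in male cells and from 18.4 to 3.77 CPM in female cells.

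The same ratio of *Aldh1a2* to *Crabp2* UMIs also differed between classes. It was 3.52 (3.38–3.67) and 3.11 (2.95–3.27) in SCs, 1.68 (1.59–1.79) and 1.53 (1.41–1.66) in differentiating cells, 1.74 (1.61–1.88) and 1.23 (1.03–1.46) in endocrine cells and 1.01 (0.746–1.35) and 1.08 (0.618–1.89) in mesenchymal cells. In melanotroph-like cells, which had 31.1 and 27.5 CPM of *Aldh1a2* and 17.9 and 23.4 CPM of *Crabp2*, it was 1.73 (1.17–2.59) and 1.18 (0.683–2.03).

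**Figure D3:**
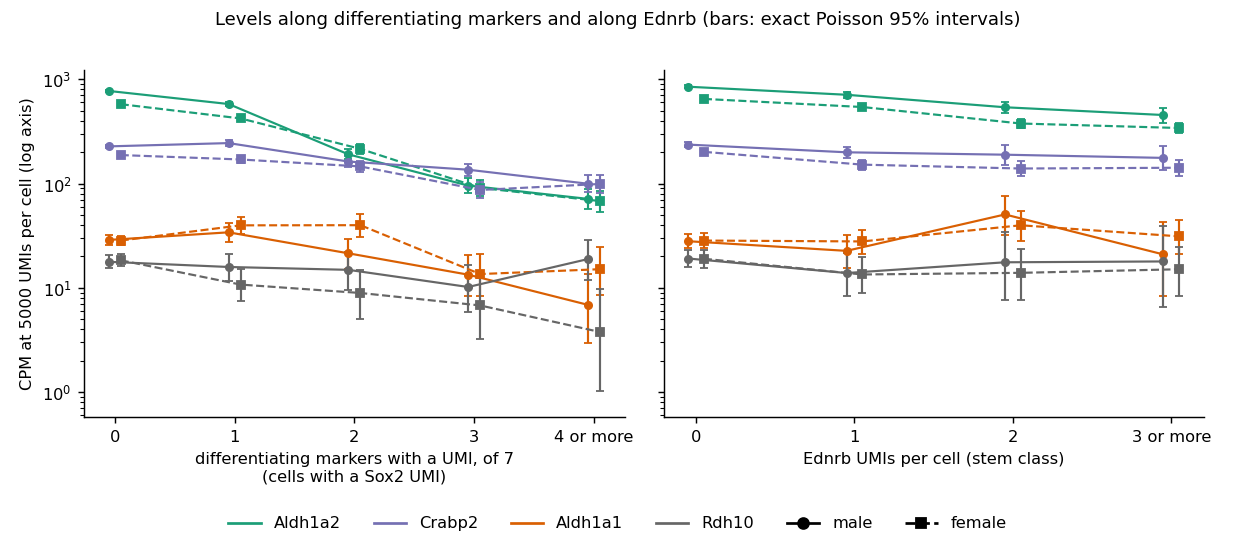
The left panel plots CPM at 5000 UMIs per cell, on a log axis, against how many of 7 differentiating markers a *Sox2* cell had, and the right panel against *Ednrb* UMIs in SCs, for 4 genes in the male (solid) and female (dashed) library with exact Poisson 95% intervals. In the left panel the *Aldh1a2* line falls by more than the *Crabp2* line, to 71.2 and 67.9 CPM. Along *Ednrb* both lines end lower than they start.

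Co-detection was counted over the 36 pairs of genes in thinned cells, taking pairs found together in at least 5% of a class in both libraries. In SCs 4 pairs passed, all with *Aldh1a2* or *Crabp2*, in differentiating cells 1, and in endocrine and mesenchymal cells 0. Pairs of other features were not counted, so these numbers have no background and depend on the levels of the single genes. *Aldh1a2* and *Crabp2*, the enzyme and the carrier, were found together in 55.9% and 42.3% of male and female SCs, and the product of their shares is 55.6% and 41.4%. In SCs this pair was thus found together about as often as its shares give. *Crabp2* was detected in 62% (59.5–64.5) of cells with an *Aldh1a2* UMI and in 59% (51–66.7) of cells without one in male SCs. In female SCs it was detected in 52.6% (50–55.2) of cells with an *Aldh1a2* UMI and in 46.6% (41.2–51.9) of cells without one. The other 3 pairs in SCs were *Aldh1a1* with *Aldh1a2* (10.4% and 9.99%, product 10.4% and 10.2%), *Aldh1a2* with *Rdh10* (8.06% and 6.01%, product 7.71% and 6.05%) and *Aldh1a1* with *Crabp2* (6.22% and 5.39%, product 7.14% and 6.53%). The last pair lay below its product in both libraries, and in female SCs *Crabp2* was in 42.5% (35.9–49.2) of cells with an *Aldh1a1* UMI and in 52.7% (50.2–55.2) of cells without one, while the male intervals overlapped. In male differentiating cells *Crabp2* was in 53.2% (49.1–57.2) of cells with an *Aldh1a2* UMI and in 36.3% (33.1–39.6) of cells without one. In female differentiating cells it was in 46.7% (42.2–51.2) of cells with an *Aldh1a2* UMI and in 31.9% (28.6–35.4) of cells without one. In differentiating cells the 2 genes therefore lay in the same cells more often than their shares give, in both libraries. Among male endocrine cells it was in 34% (29–39.3) of cells with an *Aldh1a2* UMI and in 13.6% (12–15.4) of cells without one. Among female endocrine cells it was in 21% (14.2–29.2) of cells with an *Aldh1a2* UMI and in 14.3% (11.6–17.5) of cells without one, and these intervals overlapped. In mesenchymal cells, few of which had an *Aldh1a2* UMI, *Crabp2* was in 24.1% and 38.5% of those with one and 6.13% and 6.98% of those without. The intervals did not overlap, but any dehydrogenase gene lay with a *Crabp* gene in only 7 of 437 and 5 of 228 mesenchymal cells. Without the cells that scored highest as doublets, the female *Aldh1a2* level in this class fell to 0.36 of its value. The part of doublets in these shares was not tested.

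UMIs of *Rdh10*, a dehydrogenase gene and a *Crabp* gene were seldom found together in a cell, and *Stra6*, *Rbp4* and *Cyp26b1* were not asked for. Without asking for *Rdh10*, a dehydrogenase gene and a *Crabp* gene were together in 56.8% of male and 43.6% of female SCs. Any of the 3 dehydrogenase genes together with *Rdh10* and a *Crabp* gene was found in 4.8% (3.81–5.95) of male and 2.98% (2.24–3.87) of female SCs, and in 0.458% (0.0555–1.64) and 0.439% (0.0111–2.42) of mesenchymal cells. *Rdh10* without any dehydrogenase gene was in 21.7% (18–25.9) and 15.4% (10.9–20.7) of mesenchymal cells but in 0.431% (0.173–0.886) and 1.18% (0.731–1.8) of SCs. Any dehydrogenase gene was in 10.3% and 9.21% of mesenchymal cells and in 91.4% and 83.3% of SCs. The shares of these combinations depend on those of the single genes, and no product of shares was taken for them. *Stra6* and *Rdh10*, both highest in mesenchymal cells, were found together in 3.89% and 2.63% of them, beside a product of shares of 4.26% and 3.07%. Low genes can be missed at 5000 UMIs, while free RNA and doublets can add joint detection, so these are shares of detection. The part of either was not tested, *Pomc* being at 167 and 58.7 CPM in SCs. None of the 9 genes was detected in 3.32% and 7.86% of thinned SCs, 30.3% and 35.1% of differentiating, 41.4% and 52% of endocrine and 47.6% and 53.1% of mesenchymal cells.

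**Figure D4:**
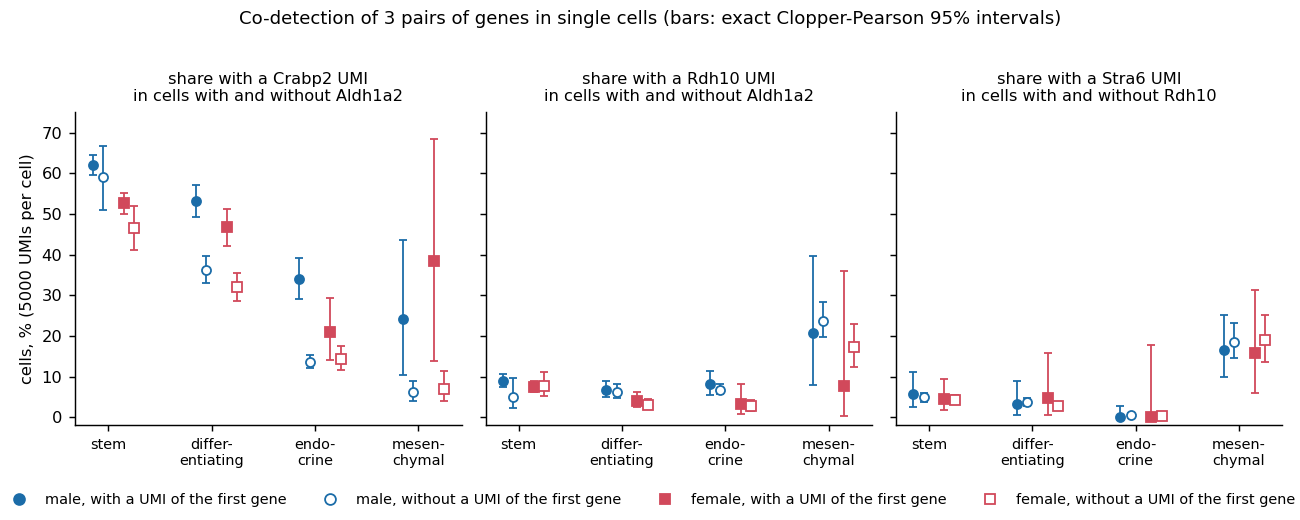
Each panel plots, for 1 pair of genes at 5000 UMIs per cell, the percentage of cells with a UMI of one gene among cells with (filled) and without (open) a UMI of the other, in 4 classes of the male and female library, with exact Clopper-Pearson 95% intervals. For *Crabp2*, filled points lie above open points in differentiating cells, at 53.2% against 36.3% in the male library, and close to them in SCs.

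Between the libraries, none of the 9 genes was 1.5-fold higher or lower in male than in female SCs after adding 5 CPM, of 6 genes with enough UMIs, against 0.786% of features higher and 0.802% lower in the male. *Aldh1a2* in SCs was still 1.39-fold (1.35–1.44) higher in the male library, beyond counting error, and *Crabp2* 1.23-fold (1.16–1.3). *Aldh1a3*, from 155 and 52 UMIs in SCs, was 2.42-fold (1.57–3.8) higher in the male library, which came to 1.48 after adding 5 CPM. *Aldh1a1* went the other way, at 0.833-fold (0.709–0.979). The median log2 fold of male over female SCs was 0.15 over the 9 genes, beside 0.01 over all features. In mesenchymal cells *Crabp2* passed, 1 of 5 genes with enough UMIs, at 1.63-fold (1.07–2.54), against 2.39% of features higher and 0.931% lower. With stricter marker thresholds no gene passed there. *Rbp4* in endocrine cells was 2.08-fold (1.91–2.26) higher in the male library. Gonadotroph-like cells made up 302 of 2382 male and 18 of 696 female endocrine cells, and within the POU1F1 lineage the male to female ratio of *Rbp4* was 0.834-fold (0.738–0.944). The ratio was 1.86-fold (1.45–2.4) in gonadotroph-like cells, 1.82-fold (0.91–3.83) in melanotroph-like cells and 2.81-fold (2.4–3.32) in the other endocrine cells, and the melanotroph-like interval includes 1. The part of the makeup in the endocrine difference was not tested.

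Other genes of retinoid biology, from 3 lists chosen for their roles, were measured beside the 9 genes. The lists overlap, *Rarb*, *Dhrs3* and *Cyp26a1* being in the target list as well. Of 6 receptor genes, *Rarb* was higher and *Rxrg* lower in SCs than in endocrine cells, none passed the fold of 2 against differentiating cells, and *Rarb* and *Rarg* were lower in SCs than in mesenchymal cells. *Rarb*, a receptor gene that retinoic acid induces, was at 172 and 171 CPM in mesenchymal cells, 27.8 and 25.6 CPM in SCs, 12.5 and 11 CPM in differentiating cells and 5.98 and 4.57 CPM in endocrine cells. *Rarg* was at 9.09 and 12.5 CPM in SCs and 2.78 and 3.13 CPM in differentiating cells, a difference that the added 5 CPM kept under the threshold. Among genes for retinoid carriers and enzymes, *Rbp7* was lower in SCs than in endocrine cells, and *Lpl*, which encodes lipoprotein lipase, higher and *Fabp5* lower than in differentiating cells. *Dhrs3*, *Cyp26a1* and *Adh1* were lower in SCs than in mesenchymal cells, and none was higher. *Dhrs3*, which turns retinaldehyde back to retinol, was at 289 and 334 CPM in mesenchymal cells and 6.41 and 5.62 CPM in SCs. *Cyp26a1*, the relative of *Cyp26b1* in breakdown, was at 25.1 and 26.2 CPM in mesenchymal cells and 0.0801 and 0.0986 CPM in SCs.

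Of 11 genes known to respond to retinoic acid, 6 were lower in SCs than in mesenchymal cells (*Cyp26a1*, *Rarb*, *Dhrs3*, *Tgm2*, *Rarres2* and *Hic1*) and 0 were higher, beside 7% and 8.46% of all features with enough UMIs. *Rarb* alone passed as higher in SCs than in endocrine cells, and none passed between SCs and differentiating cells. *Rarres2*, which encodes chemerin, was at 169 and 154 CPM in mesenchymal cells and 2.96 and 3.99 CPM in SCs, and *Hic1*, a transcriptional repressor, at 177 and 162 CPM in mesenchymal cells and 0.361 and 0.0493 CPM in SCs. Among further carriers and enzymes above 50 CPM in a class, *Fabp5*, another carrier of retinoic acid, was at 229 and 190.4 CPM in differentiating cells and 88.3 and 67.3 CPM in SCs, and *Adh1*, an alcohol dehydrogenase that also oxidises retinol, at 75.8 and 79.7 CPM in mesenchymal cells and 0.2 and 0.0986 CPM in SCs. *Rdh14*, *Dhrs4*, *Adh5* and *Nrip1* stayed within a fold of 2 in at least 1 library for each comparison. *Rxrg*, *Rarg*, *Rbp7*, *Cyp26a1* and *Tgm2* lay outside the rule for named genes and are named because the counts include them.

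**Figure D5:**
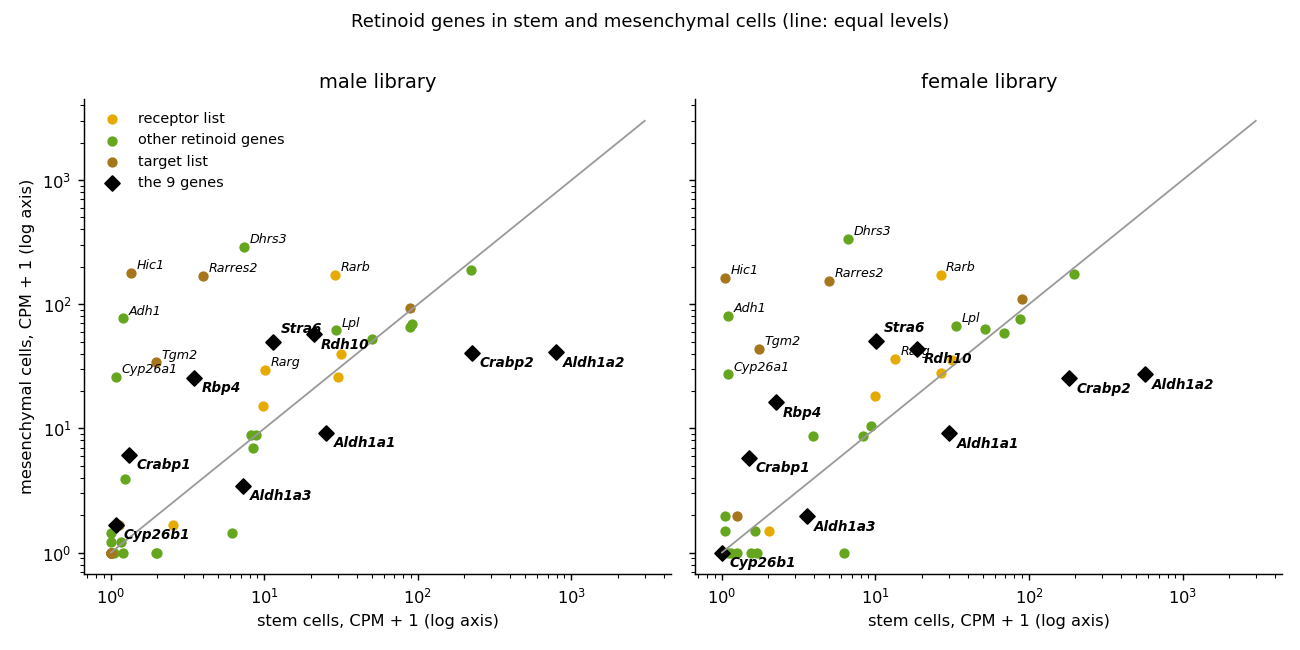
Each point is 1 of the retinoid genes reported here, placed by its level in SCs (x) and mesenchymal cells (y), both as CPM + 1 on log axes, for the male and female library, with the 9 genes as black diamonds and the line marking equal levels. *Aldh1a2* and *Crabp2* lie far below the line and *Stra6* above it, with *Dhrs3* at 289 and 334 CPM in mesenchymal cells.

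Likeness of pattern was measured as Pearson's r of log2(CPM + 5) over 20 points, 10 subgroups in each of the 2 libraries, in which points of a library share its preparation and are not independent. *Aldh1a2* and *Crabp2* had r = 0.95, *Rdh10* and *Stra6* 0.94, and *Aldh1a1* and *Aldh1a2* 0.86, while *Aldh1a2* and *Stra6* had -0.18. Gonadotroph-like cells are not among the 20 points because the female group had under 50 cells, and there *Rdh10* was at 64.4 and 45.4 CPM and *Stra6* at 1.92 and 0 CPM, so that the pair parted in that group. Among 4439 features with at least 50 CPM in a subgroup, those most like *Aldh1a2* were *Slc9a3r1* (r = 0.99), *Stx18* (0.99) and *Grb14* (0.98). Those most like *Crabp2* were *Stx18* (r = 0.95), *Snn* (0.95) and *Aldh1a2* (0.95), those most like *Rdh10* were *Mgp* (r = 0.96), *1810058I24Rik* (0.96) and *Abl1* (0.96) and those most like *Stra6* were *Itm2a* (r = 0.98), *Bicc1* (0.98) and *Islr* (0.98). *Rbp4*, whose gonadotroph-like peak is likewise left out, was most like *Atf5* (r = 0.9), *Srp19* (0.9) and *Pam16* (0.88).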

How the data were processed

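Male and female single-cell count matrices were deposited by the authors as whole-number UMI counts per feature and barcode. Per the file headers they were made with Cell Ranger 3.0.2, and the study's methods give a mouse mm10 reference with eGFP added. The submitters' processing notes name R 3.6.0 and Seurat 3 and 4, whose integrated values were not used here. The kit version is not given alike in the labels and the methods.

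From these counts, barcodes with at least 50 genes and a mitochondrial share of no more than the mean plus 3 SD were kept, 10410 of 10569 in the male and 5711 of 5796 in the female library, with 105883748 and 62830305 UMIs. Doublets were not removed, and an alternative left out the highest Scrublet scores, 867 male and 261 female cells. Cells were classed by raw UMIs of marker genes, endocrine and mesenchymal rules before the differentiating rule and that before the stem rule, and cells that met rules of unlike lineages were set aside as mixed. Levels (CPM) are the UMIs of a gene summed over a class, scaled to a class total of 1e6, with exact Poisson intervals. Shares and co-detection used cells thinned to 5000 UMIs with a fixed seed, leaving out 3627 male and 287 female shallower cells, with exact Clopper-Pearson intervals. A ratio's limits divide the lower end of one interval by the upper end of the other, and 0 UMIs were taken to allow 3. Intervals hold counting error only, and no p-value was computed because each sex had 1 library. numpy 2.4.6, scipy 1.17.1, scanpy 1.11.5 and Python 3.11.15 were used. The fold call between SCs and endocrine cells was checked on simulated counts and the thinning on cells of the female library.

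A feature was called between classes at a fold of 2, and between libraries at a fold of 1.5, after adding 5 CPM. Of the other retinoid genes, those with at least 50 CPM in 1 of the 4 classes in both libraries could be named, up to the 2 largest folds each way for each list and comparison. The members and lists were chosen with earlier results of these data known. Some genes of the lists and marker rules are not reported here. Gene positions are those of GENCODE on GRCm38, and sequences are from RefSeq. Alternatives changed the cell filter, the class thresholds, the SC rule, doublets, shared barcodes, depth, the total, the added CPM and the detection limit.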

Additional observations from a re-analysis of the deposited data

Results flagged for a closer look

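*Cyp26b1* had UMIs in cells outside the 4 classes compared. In the male library 7 cells with UMIs of at least 2 of 6 endothelial genes had a pooled level of 157 CPM, and in the female library 4 such cells had 96.5 CPM, against at most 0.667 CPM in SCs, differentiating, endocrine and mesenchymal cells. All 13 male UMIs and all 4 female UMIs of these cells lay in 1 cell of each library, out of 25 and 9 *Cyp26b1* UMIs in all. The other 5 female UMIs were in differentiating cells, 4 of them in 1 cell. They were singled out because they are a signal in cells that no comparison used, above the level that 0 UMIs allow in the classes, and the number of cells is too small to say more.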

How the results depend on the processing

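Without replicates, values and counts were compared, not calls of a test. Of 648 levels of a gene in a class recomputed under an alternative, 534 moved by less than their interval and 114 by more. Of 136 counts of genes or pairs, 120 stayed within 1.5 times. Counted over all 9 genes, adding 1 CPM in place of 5 gave 2 genes lower in SCs than in endocrine cells, 1 lower than in differentiating cells, and 2 higher in male than in female SCs and 5 in mesenchymal cells, and the cause is the smaller value added to low levels. With means of per-cell CPM, 1 gene was higher in male SCs and 3 in male mesenchymal cells. Leaving the 20 most abundant genes out of the totals gave 1 gene higher in male SCs. For male over female mesenchymal cells, the count was 2 with SCs defined by 2 or more *Sox2* UMIs, 2 without the highest Scrublet scores and 0 with stricter thresholds, and the cause was not tested. Pairs found together in 5% of cells numbered 1 in SCs and 0 in differentiating cells when 2 UMIs were required, and 7 in SCs, 6 in differentiating, 3 in endocrine and 1 in mesenchymal cells without thinning, by the construction of both alternatives. No paired analysis was possible because each sex had 1 library and no result comes from a test. Depth limits *Aldh1a3*, *Crabp1* and *Cyp26b1*, with few UMIs in each class, and the female gonadotroph-like group, with 18 cells.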
